A study of Homo sapiens with 8 samples.

Results

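The genes described here belong to the NF-kB pathway or are well known targets of it, and they were taken by gene symbol from a list of 33. Of the 33, 27 had a row in the files, which hold 19770 genes in all, and the other 6 (CXCL1, CXCL2, CCL2, IL6, TNF and LTB) were not analysed here. A filter of at least 1 CPM (a gene's reads scaled to the library total) in at least 2 of the 8 libraries left 15122 genes for testing, among them 26 of the 27. The gene that did not pass was ICAM1, the adhesion molecule that inflamed cells display to leukocytes, which lay between 0.152 and 0.511 CPM in the 8 libraries.

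NF-kB proteins are dimers of RelA (p65), RelB, c-Rel, p50 and p52 that are held in the cytoplasm by inhibitor proteins of the IkB family. Receptor signals pass through TRAF adaptor proteins and ubiquitin ligases to the IkB kinases, the inhibitor is degraded, and the dimer enters the nucleus and binds kappaB sites. Several of its targets, such as NFKBIA, TNFAIP3 and NFKB2, encode parts or inhibitors of the same pathway, so they are commonly read as signs of its activity. The activation domain of p65 is also used as a building block of synthetic CRISPR activators, usually without the part of p65 that binds kappaB sites.

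The study compared transcriptomes of HEK293T cells, an established human embryonic kidney line, 72 h after transfection with CRISPR activators aimed at the promoters of the fetal globin genes HBG1 and HBG2 by a pool of gRNAs. The control received dCas9 and MCP-mCherry, a fluorescent protein fused to the MS2 coat protein, and DREAM received dCas9 and MCP-MSN, a fusion of the coat protein with parts of human transcription factors that include no p65 part. SAM received dCas9-VP64 and MCP-p65-HSF1, and dCas9-VPR is a single fusion of dCas9 with VP64, p65 and Rta, so both of these carry a p65 part, on MCP in the one and on dCas9 in the other. Each group had 2 libraries, and all 4 groups received gRNAs against the same target (MS2 gRNAs except with dCas9-VPR, 187.5 ng of each of the dCas9 and MCP plasmids, or 375 ng of the dCas9-VPR plasmid, and 125 ng of gRNA plasmid). No group was untransfected or without gRNA, and the labels do not say whether the 2 libraries of a group came from separate cultures, so p-values measure only the spread between these libraries.

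The spacing of low CPM values corresponded to 28.4 to 35.2 M reads per library, so that 3 reads were worth 0.0853 to 0.105 CPM. All 8 markers of the HEK293 line had a row, with summed levels of 381 to 562 CPM, although PAX2 and LHX1 lay near the filter. VIM, at 267 to 440 CPM, made up most of each sum, so the sum mainly follows that gene. Leukocyte markers, 4 of 8 with a row, summed to 4.34 and 4.96 CPM in the control libraries and to 6.91 to 10.1 CPM in the 6 others, and the endothelial and fibroblast markers, 5 of 6 with a row, summed to 13.4 to 20.3 CPM. The log2 fold changes were centred above 0 with SAM: the median over all 15122 genes was 0.16 against the control, 0.06 with dCas9-VPR and 0.06 with DREAM. CPM sum to the same total in every library, so this is a shift in shares and not in total RNA. Rescaling by the median of ratios brought the SAM median to 0.00. Changes with SAM are therefore given also after that rescaling where it ended a call or moved a called value by over 1.5 times. In bulk RNA, a change in the share of cells expressing a gene and a change in its RNA per cell cannot be told apart.

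Against the control, NF-kB genes moved in both directions with SAM and few of them moved with dCas9-VPR. With SAM, 18 of the 26 tested genes passed an adjusted p below 0.05 (limma, Benjamini-Hochberg over all genes), 13 higher and 5 lower, against a background of 44.6% of all tested genes (35.7% higher and 8.89% lower). The 13 higher were PLAU, CSF1, TNFAIP2, BIRC3, TRAF1, IER3, BCL3, REL, CD83, NFKBIB, TRAF3, NFKBIA and BIRC2, and the 5 lower were CXCL8, TRAF2, TNFAIP3, NFKB2 and SOD2. With dCas9-VPR, 5 passed (background 17.6%): TNFAIP2, TRAF1 and TNIP1 were higher (background 11%), and NFKBIB and TRAF2 lower (background 6.68%). With DREAM, which carries no p65 part, 7 passed (background 28%): TNFAIP2, TRAF3, CD83, CSF1 and PLAU were higher (background 18.8%), and TRAF2 and SOD2 lower (background 9.25%). The shares of the 26 genes were 69.2% with SAM, 19.2% with dCas9-VPR and 26.9% with DREAM, so the last pair lay near the background. These 3 comparisons share the control libraries.

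The median log2 fold change of the 26 genes lay close to the median of all genes in each of these comparisons. It was 0.21 with SAM (0.16 for all genes), 0.11 with dCas9-VPR (0.06) and 0.15 with DREAM (0.06). After rescaling by the median of ratios, 10 genes passed with SAM, a share near the 39% of all genes: BIRC3, CSF1, PLAU and TNFAIP2 were higher, and BCL2L1, CXCL8, NFKB2, SOD2, TNFAIP3 and TRAF2 lower. The other 9 genes that had been higher, NFKBIA among them, no longer passed. Counts from fits with 1 library left out are given, here and below, without the shares of all genes in those fits. They do not set the NF-kB genes apart from other genes. The SAM count was 11 without control replicate 1, 9 without control replicate 2, 11 without SAM replicate 1 and 10 without SAM replicate 2. The dCas9-VPR count was 0 without control replicate 2 or dCas9-VPR replicate 1, 1 without dCas9-VPR replicate 2, and 2 without control replicate 1 or either SAM library. The DREAM count was 4 without control replicate 1 and 1 without control replicate 2.

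**Figure D1:**
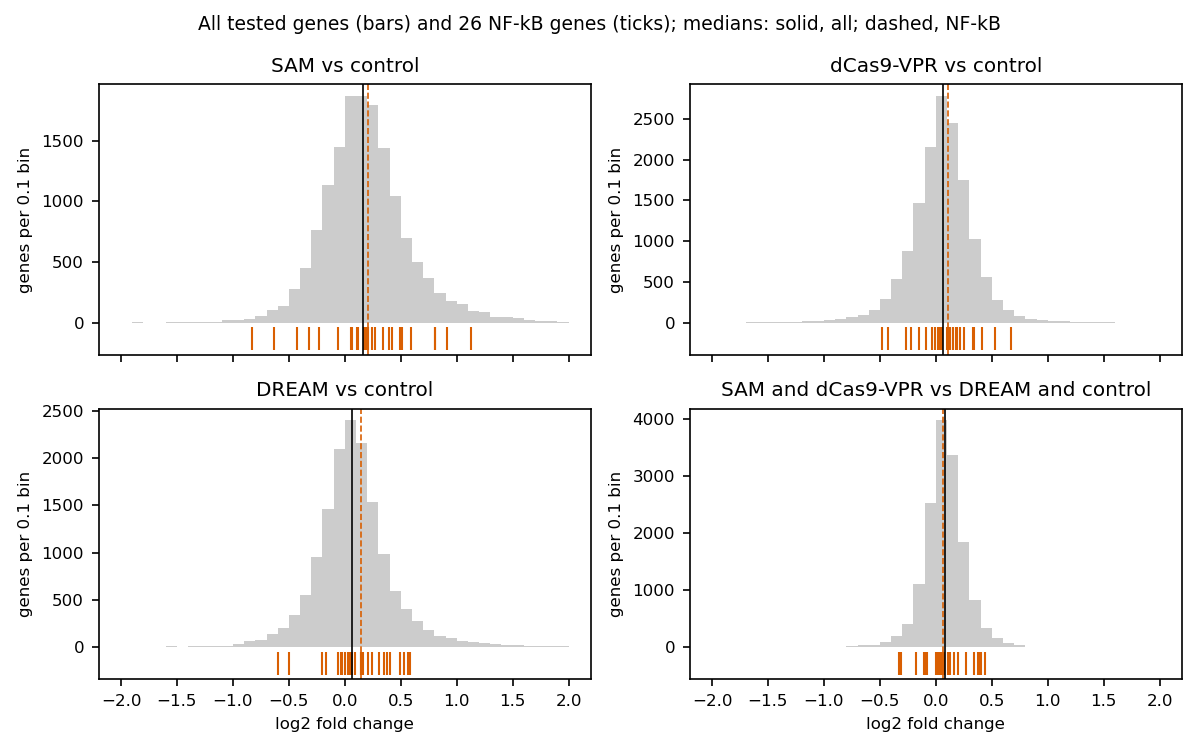
Log2 fold changes of all 15122 tested genes (bars, genes per bin, values beyond the axis not drawn) and of the 26 tested NF-kB genes (ticks under the bars) in 4 comparisons, with the medians of all genes (solid line) and of the NF-kB genes (dashed line). The NF-kB genes spread to both sides of each median, and the SAM panel has the widest spread, from -0.83 for CXCL8 to 1.12 for PLAU.

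The study's own threshold (fold above 2 and adjusted p below 0.05) was passed by 1 NF-kB gene with SAM, PLAU (background 4.34%), and by none with dCas9-VPR (background 1.1%) or DREAM (background 2.55%). No NF-kB gene exceeded a fold of 2 at any p with dCas9-VPR or DREAM, where at an unadjusted p below 0.05 with no fold limit limma counted 8 genes (background 34.2%) and 11 genes (background 40.2%). CSF1 passed this threshold with SAM too when control replicate 1 was left out, at a log2 fold change of 1.02, and after rescaling by the median of ratios PLAU stood at 0.96 and no NF-kB gene passed it.

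Among the NF-kB subunits, NFKB2 was lower and REL higher with SAM, and neither passed against the control with dCas9-VPR or DREAM. NFKB2 (chr10:102394110-102402525, hg38) encodes the p100 precursor of p52 and is itself a target of the pathway. It was measured at 29.9 and 28.5 CPM in the control, 29.7 and 30.0 CPM with DREAM, 23.6 and 23.0 CPM with SAM, and 29.2 and 28.8 CPM with dCas9-VPR. Both SAM libraries lay below all 6 others. The log2 fold change was -0.32 ± 0.07 (SE) against the control (limma, adjusted p = 0.00497), and -0.49 after rescaling. It was -0.01 with dCas9-VPR (adjusted p = 0.944) and 0.03 with DREAM (adjusted p = 0.782), and the direct difference between SAM and dCas9-VPR was -0.31 (adjusted p = 0.00858). The last of these no longer passed without SAM replicate 2 or either dCas9-VPR library, where the value lay between -0.32 and -0.29, while the difference from the control passed without any 1 of the 8 libraries.

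REL encodes c-Rel, a subunit with its own activation domain. It reached 17.7 and 15.99 CPM with SAM and 14.8 and 14.9 CPM with dCas9-VPR, against 13.0 and 12.5 CPM in the control and 15.1 and 11.8 CPM with DREAM. The DREAM libraries spanned the dCas9-VPR and control values, and the SAM libraries lay above all others. The difference from the control was 0.39 ± 0.12 on the log2 scale with SAM (limma, adjusted p = 0.0207) and 0.23 after rescaling (adjusted p = 0.114). It did not pass without either control library or SAM replicate 1, at 0.32 to 0.42. NFKB1, which encodes the p105 precursor of p50, lay between 20.6 and 23.9 CPM in the 8 libraries, and its 3 log2 fold changes against the control were 0.07, 0.02 and 0.05 with SAM, dCas9-VPR and DREAM (adjusted p from 0.577 to 0.909).

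RELA and RELB, the subunits outside the list, are given beside them because the p65 part of the activators comes from RELA. RELA was measured at 49.3 and 45.4 CPM in the control, 51.2 and 47.4 CPM with DREAM, 47.1 and 48.1 CPM with SAM, and 48.5 and 51.0 CPM with dCas9-VPR. Its log2 fold changes were 0.01, 0.07 and 0.06 with SAM, dCas9-VPR and DREAM (limma, adjusted p = 0.934, 0.508 and 0.578), with 95% intervals from -0.15 to 0.16 for SAM and from -0.09 to 0.23 for dCas9-VPR. HSF1, the other human part of the SAM effector, went from 61.6 and 58.0 CPM in the control to 1173 and 1230 CPM with SAM, and reads of the effector cannot be told apart from those of the endogenous gene. RELB, the partner of p52, was 0.43 higher with SAM (adjusted p = 0.00375), or 0.26 after rescaling (adjusted p = 0.0360), and 0.42 higher with DREAM (adjusted p = 0.00667), and 0.00 with dCas9-VPR (adjusted p = 0.991).

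The inhibitors and feedback regulators did not move together. NFKBIA, TNFAIP3, NFKB2 and BIRC3 are shown with their promoters because all 4 carry a kappaB match in the 250 bases before a RefSeq gene start, while with SAM NFKBIA and BIRC3 were higher than in the control and NFKB2 and TNFAIP3 lower. The sequences are from RefSeq (GRCh38.p14) and run 5′ to 3′ on the gene's strand, ending at the base before the start, and for NFKB2, which has several windows, the window with the most matches is shown. That NFKB2 window lies inside the gene coordinates given above, so it precedes a start within the gene and not the first annotated base. Capitals mark matches to the 10-base kappaB consensus on either strand, and in NFKB2 the first run of capitals holds 2 overlapping matches.
NFKBIA chr14:35404750-35404999 (-): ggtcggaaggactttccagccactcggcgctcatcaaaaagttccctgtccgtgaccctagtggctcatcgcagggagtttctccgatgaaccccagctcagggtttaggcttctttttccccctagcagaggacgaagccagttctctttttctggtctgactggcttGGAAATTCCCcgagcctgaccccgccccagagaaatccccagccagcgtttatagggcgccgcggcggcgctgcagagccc
BIRC3 chr11:102317234-102317483 (+): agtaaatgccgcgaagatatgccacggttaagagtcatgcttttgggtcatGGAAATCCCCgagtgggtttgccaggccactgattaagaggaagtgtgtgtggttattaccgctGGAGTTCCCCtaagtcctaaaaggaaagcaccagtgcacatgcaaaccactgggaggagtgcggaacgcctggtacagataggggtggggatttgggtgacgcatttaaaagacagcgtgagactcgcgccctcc
NFKB2 chr10:102394328-102394577 (+): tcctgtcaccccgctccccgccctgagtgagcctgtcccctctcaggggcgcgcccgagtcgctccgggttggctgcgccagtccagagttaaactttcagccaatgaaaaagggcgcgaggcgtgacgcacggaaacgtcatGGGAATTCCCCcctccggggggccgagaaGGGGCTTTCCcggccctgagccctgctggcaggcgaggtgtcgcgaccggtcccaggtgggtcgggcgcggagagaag
TNFAIP3 chr6:137867009-137867258 (+): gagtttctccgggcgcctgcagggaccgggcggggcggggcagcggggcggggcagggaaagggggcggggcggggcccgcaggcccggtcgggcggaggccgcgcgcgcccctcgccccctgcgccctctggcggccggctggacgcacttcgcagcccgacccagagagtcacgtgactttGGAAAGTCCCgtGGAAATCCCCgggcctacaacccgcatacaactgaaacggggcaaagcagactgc

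NFKBIA (chr14:35401513-35404750, minus strand) encodes IkB-alpha, the inhibitor that NF-kB itself induces within an early feedback loop. Its 8 values were 32.4 and 32.0 CPM in the control, 35.8 and 33.1 CPM with DREAM, 37.3 and 37.2 CPM with SAM, and 32.9 and 33.4 CPM with dCas9-VPR. The SAM libraries were the highest, and the DREAM and dCas9-VPR libraries overlapped. With SAM the log2 fold change was 0.21 ± 0.07 (limma, adjusted p = 0.0342), which is 0.04 above the median of all genes, and after rescaling it was 0.04 (adjusted p = 0.665). With dCas9-VPR it was 0.04 (adjusted p = 0.723) and with DREAM 0.09 (adjusted p = 0.338). The SAM call was lost without either control library, either SAM library or either dCas9-VPR library, at values from 0.20 to 0.21.

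TNFAIP3 (chr6:137867214-137883313) encodes A20, a ubiquitin-editing enzyme that ends the signal. The control gave 4.34 and 4.96 CPM, DREAM 3.92 and 4.21 CPM, SAM 3.69 and 2.99 CPM, and dCas9-VPR 5.04 and 4.97 CPM. The SAM libraries were the lowest and the dCas9-VPR libraries the highest of the 8, without overlap between them. The log2 fold change was -0.43 ± 0.14 with SAM (limma, adjusted p = 0.029), 0.10 with dCas9-VPR (adjusted p = 0.65) and -0.17 with DREAM (adjusted p = 0.39), and the difference between SAM and dCas9-VPR was -0.53 (adjusted p = 0.0166). Without control replicate 2 or SAM replicate 2 the SAM value was -0.34 to -0.30 and no longer passed. The difference from dCas9-VPR no longer passed without SAM replicate 2 or either dCas9-VPR library (-0.54 to -0.39). The antisense WAKMAR2 overlaps TNFAIP3 by 1021 bases at 0.127 to 0.569 CPM.

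NFKBIB and NFKBIE, the genes of IkB-beta and IkB-epsilon, were lower with dCas9-VPR than with SAM and DREAM. These and the other genes given below outside the naming rule were picked after their values were seen. NFKBIB measured 28.1 and 29.3 CPM in the control, 32.5 and 34.0 CPM with DREAM, 35.9 and 33.5 CPM with SAM, and 24.8 and 22.8 CPM with dCas9-VPR. Both dCas9-VPR libraries lay below the control and both SAM and DREAM libraries above it. With dCas9-VPR its log2 fold change was -0.27 against the control (limma, adjusted p = 0.0395) and -0.48 against DREAM (adjusted p = 0.00448), with SAM it was 0.27 against the control (adjusted p = 0.0175), and SAM exceeded dCas9-VPR by 0.54 (adjusted p = 0.000961). NFKBIE lay at 22.6 and 22.3 CPM with SAM, 21.7 and 24.6 CPM with DREAM and 16.2 and 18.8 CPM with dCas9-VPR. It was 0.35 higher with SAM than with dCas9-VPR (adjusted p = 0.0212). The control, at 18.8 and 20.1 CPM, overlapped dCas9-VPR (-0.15, adjusted p = 0.316). Against DREAM, dCas9-VPR stood at -0.39 for NFKBIE (adjusted p = 0.0266), which did not pass in a fit of only these groups (adjusted p = 0.0638). Leaving out 1 library at a time, that value ran from -0.50 to -0.29. After rescaling NFKBIB stood at 0.10 with SAM against the control (adjusted p = 0.328), and NFKBIE at 0.24 with SAM against dCas9-VPR (adjusted p = 0.111), so neither passed. Calls of NFKBIB against the control were also lost with SAM without either control library or SAM replicate 1 (0.22 to 0.30) and with dCas9-VPR without either library of the control, SAM or dCas9-VPR (-0.32 to -0.21), and its difference between dCas9-VPR and DREAM without dCas9-VPR replicate 2 (-0.42), while that between SAM and dCas9-VPR passed without any 1 library. The NFKBIE difference between SAM and dCas9-VPR was lost without either SAM library or dCas9-VPR replicate 1 (0.25 to 0.36). SIRT2 overlaps NFKBIB on the opposite strand by 164 bases, at 59.6 to 86.6 CPM, and the sources used here do not say whether the counting used strand.

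BCL3, an atypical IkB protein that binds p50 and p52 in the nucleus, was 0.42 higher with SAM (limma, adjusted p = 0.0206), at 5.43 and 5.03 CPM against 3.605 and 3.98 CPM in the control. After rescaling it was 0.26 (adjusted p = 0.12), and it did not pass without control replicate 1 or either SAM library (0.36 to 0.47). TNIP1, whose product binds A20, was 0.25 higher with dCas9-VPR (adjusted p = 0.049), at 42.5 and 44.2 CPM against 37.6 and 35.2 CPM in the control, but 0.20 after rescaling (adjusted p = 0.0742). That call was also lost without either library of the control, SAM or dCas9-VPR (0.20 to 0.30). CYLD, a deubiquitinase that restrains the pathway, lay between 32.6 and 37.8 CPM, with log2 fold changes of 0.18, 0.05 and 0.15 against the control with SAM, dCas9-VPR and DREAM (adjusted p = 0.0551, 0.619 and 0.13).

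Of the receptor adaptors and inhibitors of apoptosis, TRAF2 was lower with each of the 3 activators, in comparisons that share the 2 control libraries. TRAF2 (chr9:136881912-136926608) encodes the adaptor and ubiquitin ligase scaffold that links TNF receptors to the IkB kinases. It stood at 31.8 and 35.7 CPM in the control, 22.9 and 24.4 CPM with DREAM, 22.4 and 20.7 CPM with SAM, and 21.9 and 26.2 CPM with dCas9-VPR. The control libraries were above all 6 others. The dCas9-VPR libraries overlapped those of SAM and of DREAM, and both SAM libraries lay below both DREAM libraries. The log2 fold changes were -0.63 ± 0.10 with SAM, -0.48 ± 0.10 with dCas9-VPR and -0.50 ± 0.10 with DREAM (limma, adjusted p = 0.000814, 0.011 and 0.00478). Neither SAM nor dCas9-VPR differed from DREAM past the threshold, at -0.13 (adjusted p = 0.407, 95% interval -0.36 to 0.09) and 0.02 (adjusted p = 0.929, -0.21 to 0.24). Without control replicate 2 the value was -0.42 with DREAM and no longer passed, and without that library or dCas9-VPR replicate 1 it was -0.40 to -0.36 with dCas9-VPR and no longer passed. The SAM difference passed without any 1 library.

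TRAF1 passed with SAM and dCas9-VPR, and TRAF3 with SAM and DREAM. TRAF1 (chr9:120902393-120929174, minus strand), an adaptor gene that NF-kB induces, gave 1.53 and 1.14 CPM in the control, 2.31 and 1.86 CPM with DREAM, 2.37 and 2.13 CPM with SAM, and 2.75 and 2.12 CPM with dCas9-VPR. The activator libraries all lay above the control and overlapped one another. The log2 fold change was 0.59 ± 0.18 with SAM (limma, adjusted p = 0.0238), 0.68 ± 0.18 with dCas9-VPR (adjusted p = 0.0307) and 0.50 with DREAM (adjusted p = 0.067), and it was 0.46 with SAM after rescaling (adjusted p = 0.0628). The calls of SAM and dCas9-VPR were lost without control replicate 2 or either library of the activator itself, at 0.44 to 0.65 for SAM and 0.52 to 0.83 for dCas9-VPR. TRAF3, which keeps the non-canonical kinase NIK low, was 0.24 higher with SAM (adjusted p = 0.0245) and 0.31 higher with DREAM (adjusted p = 0.0127), and its value with dCas9-VPR was 0.19 (adjusted p = 0.106). TRAF3 was 0.08 with SAM after rescaling (adjusted p = 0.389), and its calls were lost without control replicate 2, without either SAM library for SAM (0.18 to 0.28) and without DREAM replicate 1 for DREAM (0.23 to 0.24).

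BIRC3 (chr11:102317450-102339404) encodes cIAP2, a ubiquitin ligase bound to TRAF2 and a classical target of the pathway. The control gave 0.542 and 0.685 CPM, DREAM 1.01 and 0.878 CPM, SAM 1.26 and 1.65 CPM, and dCas9-VPR 0.372 and 0.546 CPM. The SAM libraries were above all others, and the dCas9-VPR and control libraries overlapped. It was 0.81 ± 0.20 higher with SAM than in the control on the log2 scale (limma, adjusted p = 0.00827) and -0.22 with dCas9-VPR (adjusted p = 0.469), and the difference between SAM and dCas9-VPR was 1.03 ± 0.20, a fold of 2.04 (adjusted p = 0.00381). BIRC3 reached 1 CPM in 3 libraries, both SAM libraries and DREAM replicate 1, so it entered the test through the groups where it was high. Both calls were also made with no filter on low values. At this level the added 0.5 CPM shrinks the fold: with 0.1 CPM added, the difference from the control was 1.12. Without SAM replicate 2 neither call passed, at 0.66 against the control and 0.88 against dCas9-VPR.

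BIRC2, the neighbouring gene on chromosome 11 and the source of cIAP1, was the only tested NF-kB gene whose 4 libraries with a p65 part all lay above the 4 others. This was 3.85% of the tested NF-kB genes, near the 4.6% of all genes. For none did they all lie below, a direction whose share of all genes is not given here. It measured 55.4 and 51.3 CPM with SAM and 51.1 and 50.7 CPM with dCas9-VPR, against 47.5 and 45.6 CPM in the control and 47.9 and 45.1 CPM with DREAM. The log2 fold change was 0.19 with SAM against the control (limma, adjusted p = 0.0378) and 0.13 with dCas9-VPR (adjusted p = 0.211), and after rescaling the SAM value was 0.02 (adjusted p = 0.766). The SAM call was lost without either control library, SAM replicate 1 or either dCas9-VPR library (0.14 to 0.22). RIPK2, a kinase of the NOD receptor pathway, lay between 21.2 and 25.4 CPM, and CFLAR, a caspase-8 inhibitor gene, between 11.5 and 13.7 CPM, and neither passed in any of the 7 comparisons. IKBKE, an IkB kinase relative, lay between 0.861 and 1.85 CPM and did not pass either (0.49 with SAM, adjusted p = 0.0704).

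**Figure D2:**
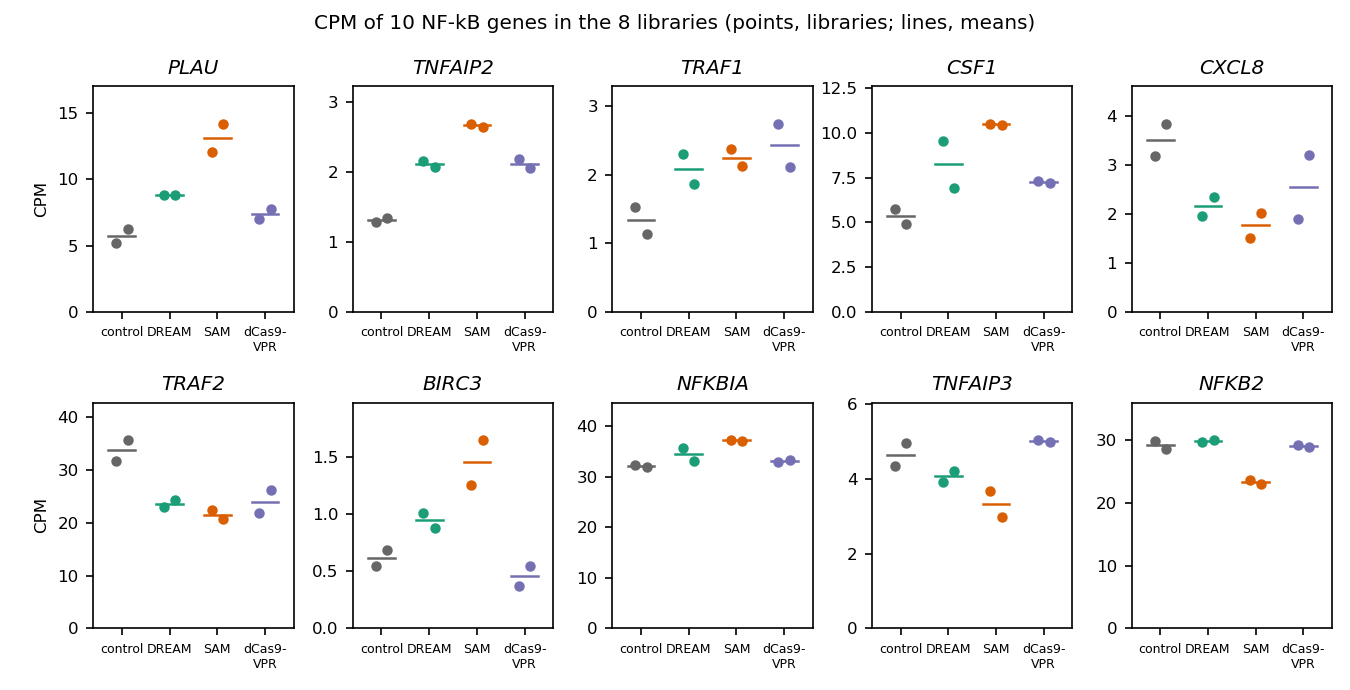
CPM of 10 NF-kB genes (y axes from 0, scaled per gene) in the 4 groups; points are single libraries and lines are means of 2 libraries. The SAM libraries are highest for PLAU, TNFAIP2, CSF1, BIRC3 and NFKBIA and lowest for NFKB2 and TNFAIP3, while TRAF2 is highest in the control.

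PLAU and CSF1, whose products are secreted, had the largest log2 increases with SAM among the 26 genes, and CXCL8, also secreted, had the largest decrease. PLAU (chr10:73909177-73917497) encodes urokinase, a protease that activates plasminogen outside the cell. Its levels were 5.23 and 6.29 CPM in the control, 8.83 and 8.81 CPM with DREAM, 12.1 and 14.2 CPM with SAM, and 7.01 and 7.79 CPM with dCas9-VPR. The 4 groups did not overlap and stood in the order control, dCas9-VPR, DREAM and SAM. With SAM it was 1.12 ± 0.13 higher on the log2 scale, a fold of 2.18 (limma, adjusted p = 0.000133), with DREAM 0.58 (adjusted p = 0.00701) and with dCas9-VPR 0.34 (adjusted p = 0.0865). SAM exceeded DREAM by 0.54 (adjusted p = 0.0249), or 0.45 after rescaling (adjusted p = 0.0601), and dCas9-VPR by 0.78 (adjusted p = 0.00153), and dCas9-VPR stood at -0.24 against DREAM (adjusted p = 0.245). The difference of SAM from DREAM did not pass without DREAM replicate 2 or either SAM library (0.43 to 0.66), that of DREAM from the control did not pass without control replicate 1 (0.46), and the differences of SAM from the control and from dCas9-VPR passed without any 1 library. The antisense C10orf55 overlaps PLAU by 7529 bases and reached at most 0.382 CPM.

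CSF1 (chr1:109910242-109930993), the macrophage colony-stimulating factor gene, gave 5.77 and 4.92 CPM in the control, 9.55 and 6.92 CPM with DREAM, 10.5 and 10.5 CPM with SAM, and 7.33 and 7.19 CPM with dCas9-VPR. Every activator library lay above the control, and the dCas9-VPR libraries fell between those of DREAM. It was 0.91 ± 0.15 higher with SAM (limma, adjusted p = 0.000833), 0.57 higher with DREAM (adjusted p = 0.016) and 0.41 with dCas9-VPR (adjusted p = 0.0767). SAM exceeded dCas9-VPR by 0.50 (adjusted p = 0.0256), which was 0.39 after rescaling (adjusted p = 0.0525). The DREAM call was lost without control replicate 2 or DREAM replicate 1 (0.35 to 0.46) and the difference between SAM and dCas9-VPR without any of the 4 libraries of these systems (0.49 to 0.52).

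TNFAIP2 (chr14:103121476-103137440), a TNF-induced gene whose product acts on membrane protrusions, was higher with each of the 3 activators, again against the same 2 control libraries. The control gave 1.28 and 1.34 CPM, DREAM 2.15 and 2.07 CPM, SAM 2.69 and 2.64 CPM, and dCas9-VPR 2.18 and 2.05 CPM. All activator libraries were above the control, the SAM libraries were the highest, and DREAM and dCas9-VPR overlapped. The log2 fold changes were 0.81 ± 0.15, 0.53 ± 0.15 and 0.53 ± 0.15 with SAM, dCas9-VPR and DREAM (limma, adjusted p = 0.00154, 0.0311 and 0.0206). The difference between dCas9-VPR and DREAM was 0.00 (95% interval -0.32 to 0.32). The dCas9-VPR call was lost without either library of the control, SAM or dCas9-VPR (0.50 to 0.57) and the DREAM call without either control library or DREAM replicate 1 (0.51 to 0.56), while the SAM call passed without any 1 library.

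CXCL8 (chr4:73740541-73743717), the gene of the neutrophil-attracting chemokine interleukin 8, measured 3.19 and 3.85 CPM in the control, 1.96 and 2.35 CPM with DREAM, 1.52 and 2.02 CPM with SAM, and 1.89 and 3.21 CPM with dCas9-VPR. The DREAM and SAM libraries lay below the control, and the dCas9-VPR libraries were far apart. The log2 fold change was -0.83 ± 0.22 with SAM (limma, adjusted p = 0.0115), -0.60 with DREAM (adjusted p = 0.0659) and -0.43 with dCas9-VPR (adjusted p = 0.194). Without control replicate 2 or SAM replicate 1 the SAM value was -0.71 to -0.67 and did not pass. CD83, a surface marker of activated dendritic cells, was 0.34 higher with SAM (adjusted p = 0.00639) and 0.35 higher with DREAM (adjusted p = 0.00917), and its dCas9-VPR value was 0.16 (adjusted p = 0.199). After rescaling CD83 stood at 0.18 with SAM (adjusted p = 0.0863), and without control replicate 2 its DREAM value was 0.35 and did not pass.

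The survival and stress genes SOD2, IER3 and BCL2L1 differed from the control by at most 0.51 on the log2 scale. SOD2 (chr6:159669069-159762530, minus strand), the mitochondrial superoxide dismutase, lay at 123 and 116 CPM in the control and 121 and 123 CPM with dCas9-VPR, and at 108 and 99.9 CPM with DREAM and 104 and 99.8 CPM with SAM. The control and dCas9-VPR libraries overlapped, and both lay above the DREAM and SAM libraries, which also overlapped. SOD2 was lower with SAM, at -0.23 on the log2 scale (limma, adjusted p = 0.00945) and -0.40 after rescaling, and with DREAM, at -0.20 (adjusted p = 0.025), and SAM and dCas9-VPR differed by -0.26 (adjusted p = 0.0079). The calls were lost without control replicate 1 or SAM replicate 2 for SAM (-0.20 to -0.19), without either control library or DREAM replicate 2 for DREAM (-0.24 to -0.15), and without SAM replicate 2 or dCas9-VPR replicate 2 for the difference between SAM and dCas9-VPR (-0.24 to -0.23). WTAP and ACAT2 overlap SOD2 on the opposite strand, WTAP over 30736 bases at 107 to 151 CPM. IER3, an early response gene that restrains apoptosis, was 0.51 higher with SAM (adjusted p = 0.0295), at 7.50 and 10.3 CPM against 6.04 and 5.96 CPM in the control, and 0.35 after rescaling (adjusted p = 0.131), and it did not pass without either control library or SAM replicate 2 (0.30 to 0.52). BCL2L1, the gene of BCL-XL, lay between 38.5 and 45.5 CPM, at -0.06 with SAM (adjusted p = 0.475) and -0.23 after rescaling (adjusted p = 0.014).

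**Figure D3:**
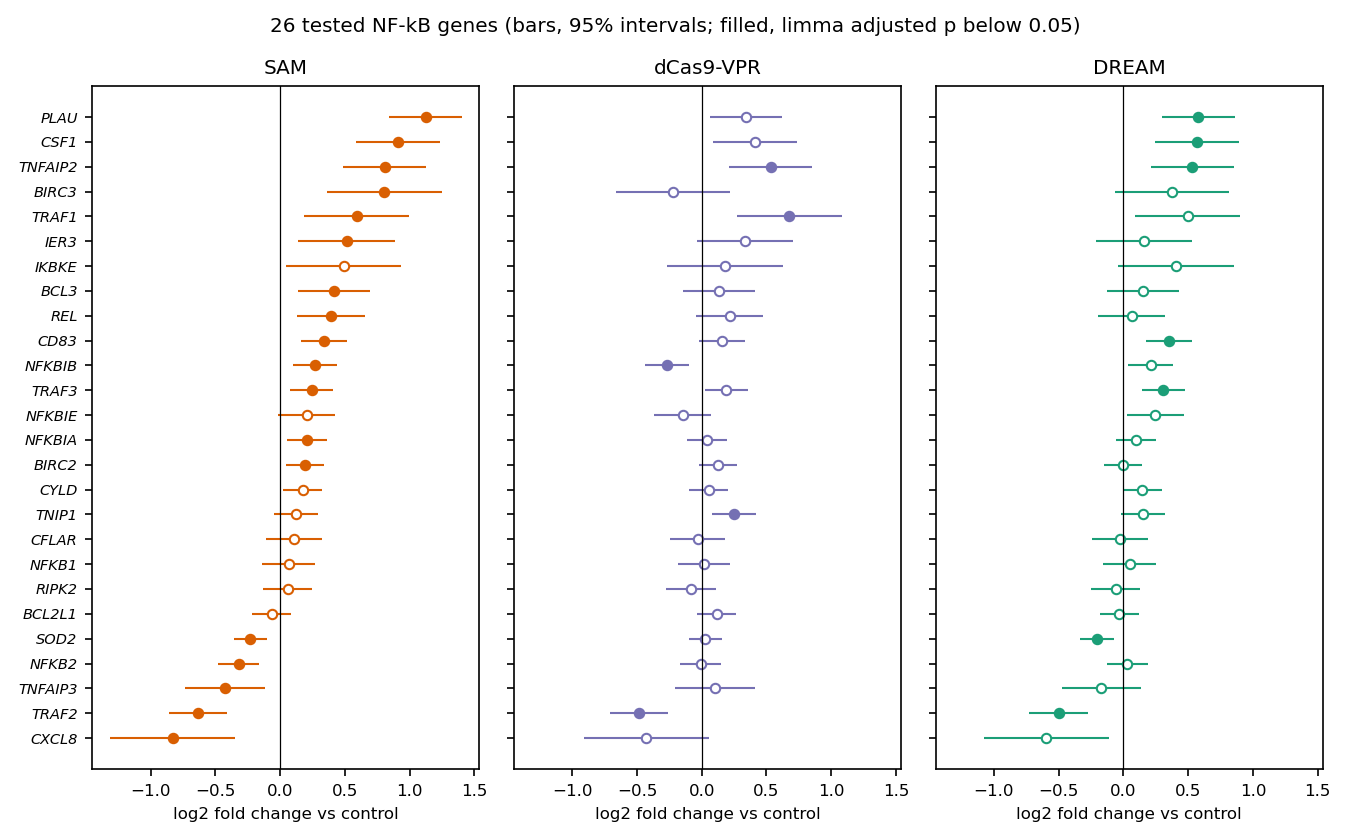
Log2 fold change against the control (x axis) of the 26 tested NF-kB genes (y axis, ordered by SAM) with SAM, dCas9-VPR and DREAM; bars are 95% intervals and filled points have a limma adjusted p below 0.05. SAM has 18 filled points, dCas9-VPR 5 and DREAM 7, and TRAF2 and TNFAIP2 are filled in all 3 panels.

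Set against DREAM and the control together, SAM and dCas9-VPR showed 7 of the 26 genes past an adjusted p below 0.05 (limma, background 16.4%), and none past a fold of 2 (background 0.0992%), at any p. PLAU (0.44), TNFAIP2 (0.41), CSF1 (0.38), REL (0.27) and BIRC2 (0.16) were higher (background 12.9%), and NFKB2 (-0.18) and TRAF2 (-0.31) lower (background 3.52%), with adjusted p from 0.0141 to 0.0497. The median over the 26 genes was 0.07, beside 0.08 over all genes. These averages did not stand for both systems alike. NFKB2 stood at -0.01 against the control and -0.04 against DREAM with dCas9-VPR, and for TRAF2 and TNFAIP2 the dCas9-VPR and DREAM values differed by 0.02 and 0.00 on the log2 scale. After rescaling 3 of the 26 genes passed, PLAU higher and NFKB2 and TRAF2 lower, a share near the 11.7% of all genes. Leaving out 1 library at a time, the calls of REL, BIRC2, TNFAIP2 and NFKB2 were each lost in 7 of 8 fits, that of CSF1 in 6, of TRAF2 in 4 and of PLAU in 2 (SAM replicate 2 or dCas9-VPR replicate 2, 0.38 to 0.41). The count was 9 without DREAM replicate 1, 3 without control replicate 1, 2 without DREAM replicate 2, 1 without control replicate 2, SAM replicate 1 or either dCas9-VPR library, and 0 without SAM replicate 2.

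**Figure D4:**
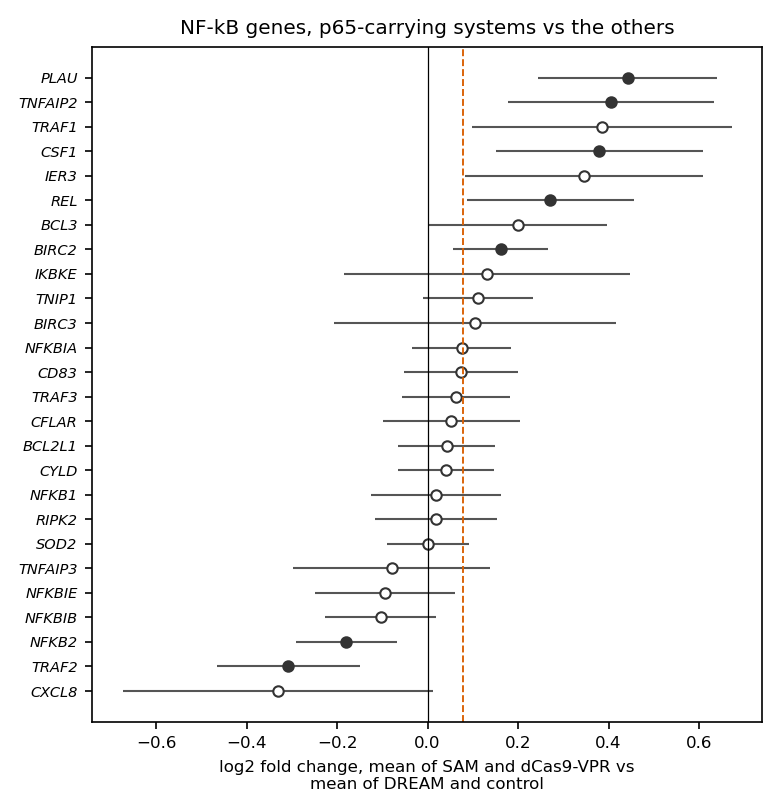
Log2 fold change of the mean of SAM and dCas9-VPR against the mean of DREAM and control (x axis) for the 26 tested NF-kB genes (y axis); bars are 95% intervals, filled points have a limma adjusted p below 0.05, and the dashed line is the median of all genes (0.08). The 7 filled points run from PLAU at 0.44 to TRAF2 at -0.31, and the intervals of most other genes cross the dashed line.

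SAM and dCas9-VPR were also set one at a time against DREAM, in comparisons that share the DREAM libraries. SAM differed from DREAM in 2 genes (background 10.7%), PLAU higher (background 9.14%) and NFKB2 lower (background 1.59%), of which NFKB2 alone passed after rescaling, beside 8.63% of all genes. The count against DREAM was 4 without DREAM replicate 1 and 0 without DREAM replicate 2 or either SAM library. dCas9-VPR differed from DREAM in 3 genes (background 13.1%), NFKBIB and NFKBIE lower (background 7.9%) and SOD2 higher (background 5.21%). That count was 1 without DREAM replicate 2 or dCas9-VPR replicate 1 and 0 without dCas9-VPR replicate 2.

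The direct comparison of SAM with dCas9-VPR held 8 NF-kB genes that passed (background 29.9%). NFKBIB, NFKBIE, BIRC3, CSF1 and PLAU were higher with SAM (background 23.6%), and NFKB2, TNFAIP3 and SOD2 lower (background 6.32%). BIRC3 was the 1 gene past a fold of 2 (background 2.31%), and none was past it after rescaling or without SAM replicate 2 or dCas9-VPR replicate 1. The count of 8 became 2 without SAM replicate 2 and 4 without either dCas9-VPR library. After rescaling by the median of ratios 8 passed as well, beside 29% of all genes, with BCL2L1 and TNIP1 lower in place of CSF1 and NFKBIE, so that 3 were higher and 5 lower. The plasmid amounts, the carrier of the p65 part and the other activation domains differed between the 2 systems, so their parts in these differences cannot be told apart.

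The kappaB consensus was found in a 300-base RefSeq promoter window (250 bases before to 50 after the start, either strand) of 13 of the 23 listed genes with a window and a row, 56.5%, against 13.3% of all 27305 genes with a window. Of all 35116 windows, 11.3% held it. Of the 13 tested genes with a match, 7 were higher and 2 lower with SAM, and of the 9 tested genes without one, 4 were higher and 3 lower (35.7% of all genes were higher and 8.89% lower). With dCas9-VPR these numbers were 1 higher and 1 lower with a match, and 2 higher and 1 lower without (11% and 6.68% of all genes). With DREAM they were 2 higher and none lower with a match, and 2 higher and 2 lower without (18.8% and 9.25% of all genes). The counts with and without a match were not tested against each other. PLAU, TNFAIP2, TRAF1, TRAF2 and CXCL8 had no match in these windows, and the 4 genes whose promoters are printed above had 1 (NFKBIA), 2 (BIRC3), 3 (NFKB2) and 2 (TNFAIP3). A match is a description of the letters and not of binding, and sites outside the windows were not searched.

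Other genes of the pathway came from a list of 35 receptors, adaptors and kinases outside the 33, of which 34 were tested. With SAM 16 were higher, 47.1% beside 35.7% of all genes, and 1, NFKBIZ, lower. With DREAM 5 were higher, 14.7% beside 18.8% of all genes, and with dCas9-VPR 1, RIPK1, the kinase of the TNF receptor complex, 2.94% beside 11%. After rescaling 9 were higher and 2 lower with SAM (19% and 19.9% of all genes). With DREAM 5 were higher (14.1% of all genes) and with dCas9-VPR none (8.01% of all genes). The RIPK1 call with dCas9-VPR (0.32) was lost after rescaling (0.26, adjusted p = 0.0531) and without either control or either dCas9-VPR library (0.24 to 0.39), and the NFKBIZ call (-0.63) without either control or either SAM library (-0.70 to -0.56). The medians as deposited were 0.26 with SAM, 0.12 with DREAM and 0.06 with dCas9-VPR on the log2 scale. Past the study's threshold with SAM were 2 of the 34 (background 4.34%): TLR3, the receptor of double-stranded RNA, and TNFRSF1B, the second TNF receptor. TLR3 went from 0.223 and 0.0653 CPM in the control to 1.29 and 1.17 CPM with SAM (1.43, limma, adjusted p = 0.000844), with 0.633 and 0.316 CPM with DREAM and 0.286 and 0.321 CPM with dCas9-VPR. TNFRSF1B stood at 0.415 and 0.424 CPM in the control, 1.30 and 1.19 CPM with DREAM, 1.57 and 2.08 CPM with SAM, and 0.544 and 0.642 CPM with dCas9-VPR. Its log2 fold change was 1.33 with SAM (adjusted p = 0.00041), 0.92 with DREAM (adjusted p = 0.00465) and 0.25 with dCas9-VPR (adjusted p = 0.373). SAM exceeded dCas9-VPR by 1.10 for TLR3 (adjusted p = 0.00542) and 1.08 for TNFRSF1B (adjusted p = 0.00212). TLR3 reached 1 CPM only in the SAM libraries and TNFRSF1B only in the SAM and DREAM libraries, so both entered the test through the groups where they were high, and these differences were also called with no filter on low values.

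A second list of 30 further target genes had 22 rows and 16 genes tested. Against the control, 5 were higher and 3 lower with SAM (31.2% and 18.8%, beside 35.7% and 8.89% of all genes). With dCas9-VPR 4 were higher and 2 lower (25% and 12.5%, beside 11% and 6.68%), and with DREAM 5 were higher and 4 lower (31.2% and 25%, beside 18.8% and 9.25%). After rescaling 3 were higher and 4 lower with SAM, beside 19% and 19.9% of all genes. IL32, a cytokine gene, and PSMB9, an immunoproteasome subunit gene, were the 2 of the 16 that passed the study's threshold, with each of the 3 activators. The background was 4.34% of all genes with SAM, 1.1% with dCas9-VPR and 2.55% with DREAM. IL32 measured 3.29 and 3.36 CPM in the control and between 10.1 and 11.998 CPM in the 6 activator libraries, with log2 fold changes of 1.65, 1.65 and 1.55 for SAM, dCas9-VPR and DREAM (limma, adjusted p = 7.89e-06, 1.72e-05 and 1.08e-05). PSMB9 measured 0.702 and 0.978 CPM in the control and between 2.69 and 5.12 CPM with the activators, at 1.85, 1.33 and 1.36 (adjusted p = 7.61e-05, 0.00187 and 0.000578). For both genes the control stood apart from all 6 activator libraries, DREAM included, a pattern whose share of all genes is not given here. PSMB9 reached 1 CPM only in the activator libraries, so it entered the test through the groups where it was high. Its differences from the control were also called with no filter on low values. The leukocyte marker sum moved the same way, led by CD68 (1.202, 1.90 and 1.89 with SAM, dCas9-VPR and DREAM), and its part in these results was not tested.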

How the data were processed

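RNA-seq libraries of 4 groups with 2 replicates each were read as paired ends of 75 bp. Per the labels and the study's methods, alignment by the authors used STAR 2.7.3a, hg38 and a Gencode annotation, and they quantified genes and deposited CPM (reads scaled to the library total) for 19770 genes per library, with 0.0001 added to each value. The library kit is described for total RNA and the labels name polyA RNA, and whether counting used strand is not given in the sources used here. The submitters' processing notes list DESeq2 under version 3.5, and no fold changes or p-values of the authors were used. CPM are not counts: of the low values, 70.9% to 76.8% per library were whole reads within 0.1 read, too few to recover counts, so no count test was run. Read depth was estimated from these steps, and the precision it gives covers counting error only.

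Here limma 3.58.1 (R 4.3.3, with trend and robust) was fitted to log2(CPM + 0.5) for the 15122 genes that reached 1 CPM in 2 or more libraries, with 1 coefficient per group and 4 residual degrees of freedom before moderation. There were 7 contrasts, tested two-sided, with Benjamini-Hochberg adjustment over all genes tested. Fold changes are on the log2(CPM + 0.5) scale and understate the changes of low genes. The smallest p of an exact permutation test of 2 against 2 libraries is 0.333, so none is given for single genes. The script was tested on simulated data. Genes were named if they passed an adjusted p of 0.05 with a fold above 1.5 with SAM, dCas9-VPR or the p65-carrying systems, plus NFKBIA, TNFAIP3 and NFKB2, and RELA, RELB, HSF1 and listed genes past the study's threshold. The 33 genes and the other lists were chosen with earlier results of these data known. Alternatives were the added value (0.1 and 1 CPM), no filter and a filter at 10 CPM, median-of-ratios rescaling, no trend or robust option, a fit of only the groups compared, a replicate block, and leaving out each library in turn. Promoter sequences came from RefSeq (GRCh38.p14).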

Additional observations from a re-analysis of the deposited data

How the results depend on the processing

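Over 87 single differences that passed, 651 values under the 8 alternative settings kept their direction, and 55 of them no longer passed. A change of filter, of the trend and robust options, of the block or of the groups fitted leaves the fold change itself as it was. In those settings the direction could not change. Leaving out 1 library gave 688 further values, none in the other direction, of which 185 no longer passed. Where that library belonged to a group outside the comparison, the fold change also stayed the same. Median-of-ratios rescaling moved the number of NF-kB genes past an adjusted p of 0.05 (limma) to 10 for SAM against the control, 3 for the systems with a p65 part against the others and 1 for SAM against DREAM, and the number past a fold of 2 as well to 0 for SAM against the control and 0 for SAM against dCas9-VPR. It moved the medians to 0.0385 (SAM), 0.0571 (dCas9-VPR) and 0.0802 (DREAM) against the control, -0.00744 (systems with a p65 part), -0.0161 (SAM against DREAM) and 0.0274 (SAM against dCas9-VPR). With 0.1 CPM added, 2 genes passed a fold of 2 with SAM and the SAM against DREAM median was 0.0804, and with 1 CPM added 0 passed it for SAM against dCas9-VPR. With no filter the SAM against DREAM median was 0.0592. A filter at 10 CPM, which tests 18 of the genes, gave medians of 0.185, 0.0460 and 0.0791 for SAM, dCas9-VPR and DREAM against the control and 0.0239 for SAM against DREAM, 3 genes past an adjusted p of 0.05 with dCas9-VPR, and 0 past a fold of 2 for SAM against dCas9-VPR. Without the trend and robust options 3 passed with dCas9-VPR and 2 for the systems with a p65 part. Fitting only the groups compared left 0 for SAM against DREAM and 1 for dCas9-VPR against DREAM. Apart from the shares past an adjusted p of 0.05 after rescaling, given above, the shares of all genes in these fits are not given. These counts therefore do not set the NF-kB genes apart from other genes. The causes were not tested.

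Leaving out 1 library at a time gave 9 to 19 genes past an adjusted p of 0.05 for SAM, 0 to 6 for dCas9-VPR and 1 to 8 for DREAM against the control, 0 to 9 for the systems with a p65 part, 0 to 4 for SAM against DREAM, 0 to 3 for dCas9-VPR against DREAM and 2 to 8 for SAM against dCas9-VPR. Past a fold of 2 it gave 1 to 2 for SAM against the control and 0 to 1 for SAM against dCas9-VPR. The medians ran from 0.19 to 0.23 for SAM, 0.0717 to 0.107 for dCas9-VPR, 0.0852 to 0.154 for DREAM, 0.00802 to 0.110 for SAM against DREAM and 0.11 to 0.14 for SAM against dCas9-VPR. Where a group is left with 1 library, that library is assumed to vary like the other groups. The shares of all genes in these fits are not given.

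With the replicate number as a replicate block, the counts rose from 18 to 21 (SAM), 5 to 10 (dCas9-VPR) and 7 to 11 (DREAM) against the control, 7 to 10 for the systems with a p65 part, 2 to 6 for SAM against DREAM, 3 to 4 for dCas9-VPR against DREAM and 8 to 12 for SAM against dCas9-VPR, and every gene called without the block was kept. Among the calls it added were TRAF1 with DREAM and TRAF3 with dCas9-VPR, so that each of these genes then passed with all 3 activators. The shares of all genes called with the block were 58.1% (SAM), 37.5% (dCas9-VPR) and 44.7% (DREAM) against the control. They were 39% for the systems with a p65 part and 30.5% for SAM against DREAM. For dCas9-VPR against DREAM the share was 29.7%, and for SAM against dCas9-VPR 45.6%. Differences between replicates 1 and 2 correlated at 0.133 to 0.326 between groups over 15122 genes, and no label says that a number marks a shared culture or day. About 3 reads, 0.0853 to 0.105 CPM, limit what could be seen of genes such as ICAM1 and BIRC3.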
